A study of Mus musculus with 16 samples.

Results

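The 7 genes described here encode the chains of mouse haemoglobin, and they were taken by their symbols (Hba-a1, Hba-a2, Hba-x, Hbb-bs, Hbb-bt, Hbb-bh1 and Hbb-y) from a read-count table of 55416 genes. All 7 are in the table, and all 7 passed the filter on low counts in every comparison. The study asked what happens to red cell production in mice when Nprl3, which encodes a part of the GATOR1 complex that restrains mTORC1, is lost. Erythroblasts of the stages S1 and S3 were sorted on Ter119 and CD71 from E13.5 foetal livers, and poly(A)+ RNA of each embryo and stage gave 1 library. Here S1 stands for early erythroid progenitors (CFU-E cells) and S3 for basophilic erythroblasts. S1 and S3 were each sorted from 4 wild-type embryos (Nprl3 +/+, embryos 1 and 5 female, 8 and 0 male), 2 heterozygotes (Nprl3 +/-, Het, embryos 3 and 4, both male) and 2 knockouts (Nprl3 -/-, KO, embryo 2 female and embryo 9 male).

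The deletion is constitutive, so every cell of the KO embryo carries it. It takes out the Nprl3 promoter and leaves in place the α-globin enhancers, most of which lie within the Nprl3 gene, and the line was backcrossed onto C57BL/6J. The source and tissue labels name an embryonic stem cell line, ES-E14TG2a, whereas the titles and growth protocol give sorted foetal liver, and the markers go with the latter. The late erythroid genes Alas2, Slc4a1 and Epb42 summed to 40.1 to 773 CPM (counts scaled to a common library size) at S1 and 14913 to 26872 CPM at S3. Kit, Gata2 and Myb, which mark early progenitors, summed to 145 to 229 CPM at S1 and 1.59 to 3.56 CPM at S3. The libraries held 23331156 to 36035368 counts at S1 and 20666044 to 37609502 at S3. Nprl3 itself had a level, as TMM-scaled CPM per kb of exon, of 0.0409 and 0.0867 in KO at S1 against 2.78 to 4.47 in wild-type, and of 14.5 and 15.4 in KO at S3 against 18.9 to 28.2. According to the study's description, erythroid cells also make spliced poly(A)+ transcripts of this gene that start at the enhancers, and counts per gene cannot tell these from Nprl3 mRNA, so the S3 values do not measure promoter-driven mRNA alone.

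Haemoglobin is a tetramer that pairs α-like with β-like chains. The genes for each kind lie in a cluster in which a distant set of enhancers acts on embryonic and adult promoters, and the embryonic genes are used first, in primitive red cells of the yolk sac. Definitive erythroblasts of the foetal liver use mainly the adult genes, and repressors such as BCL11A hold the embryonic β-like genes down there.

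In mm39 the α-like genes lie on the plus strand of chromosome 11. Hba-x (ENSMUSG00000055609.9, chr11:32226400-32228116), the embryonic ζ gene, is followed by the adult genes Hba-a1 (ENSMUSG00000069919.8, chr11:32233511-32234465) and Hba-a2 (ENSMUSG00000069917.8, chr11:32246489-32247298). The β-like genes lie on the minus strand of chromosome 7. From the enhancer side they are the embryonic genes Hbb-y (ENSMUSG00000052187.5, chr7:103500956-103502423), which encodes εy, and Hbb-bh1 (ENSMUSG00000052217.7, chr7:103490844-103492371), which encodes βh1, and then the adult genes Hbb-bs (ENSMUSG00000052305.7, chr7:103475741-103477303) and Hbb-bt (ENSMUSG00000073940.4, chr7:103461731-103463203).

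The promoters of 5 of these genes are given because the 7 genes moved together between the stages, and these are the stretches next to the start sites of the embryonic and adult genes of both clusters. Each runs 5′ to 3′ on the gene's strand over the 120 bases before the RefSeq start site (GRCm38.p6, an older build than that of the counts), and capitals mark a CACCC box, a CCAAT box and a TATA-like box (TATAA or CATAA).
Hba-x: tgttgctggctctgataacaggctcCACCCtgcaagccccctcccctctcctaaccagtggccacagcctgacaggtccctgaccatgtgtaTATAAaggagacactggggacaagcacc
Hba-a1: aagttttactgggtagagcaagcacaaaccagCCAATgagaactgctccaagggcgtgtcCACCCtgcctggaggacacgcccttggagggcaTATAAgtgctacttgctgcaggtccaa
Hbb-y: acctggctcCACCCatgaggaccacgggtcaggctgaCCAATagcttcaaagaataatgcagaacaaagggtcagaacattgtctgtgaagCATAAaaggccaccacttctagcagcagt
Hbb-bs: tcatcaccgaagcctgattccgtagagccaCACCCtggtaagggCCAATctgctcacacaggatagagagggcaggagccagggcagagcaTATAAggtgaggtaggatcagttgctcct
Hbb-bt: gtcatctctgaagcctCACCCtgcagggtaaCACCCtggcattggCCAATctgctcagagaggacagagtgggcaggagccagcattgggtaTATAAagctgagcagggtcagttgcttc
They lie at chr11:32276480-32276599 for Hba-x and chr11:32283552-32283671 for Hba-a1 on the plus strand. On the minus strand they lie at chr7:103853208-103853327 for Hbb-y, chr7:103827929-103828048 for Hbb-bs and chr7:103813924-103814043 for Hbb-bt. The Hba-a2 promoter is identical to that of Hba-a1 over the 117 bases that the windows share.

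CACCC, the kind of box that KLF1 binds, was found on the gene strand in 6 of 6 members with a promoter entry, against 16.2% of 32851 promoters of this length (31.7% on either strand). CCAAT was found in 5 of 6, the exception being Hba-x, against 11.3% (21.3% on either strand). TATAA or CATAA was found in 6 of 6, against 14.6% (22.2% on either strand), and GATA in 2 of 6, against 17.4% (29.5% on either strand). The promoters of Hbb-bs and Hbb-bt were identical at 91 of 118 aligned bases (77.1%). These matches are descriptions of letters, not of binding.

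Levels of the adult pairs are uncertain because reads that map to more than 1 place were left out of the counts. Hba-a1 and Hba-a2 were identical at 650 of 651 aligned exonic bases (99.8%), and 57.2% of the 150-base windows of Hba-a1 and 73.2% of those of Hba-a2 were found in the other gene. Hbb-bs and Hbb-bt were identical at 611 of 668 aligned bases (91.5%), with 28.6% and 31.9% of windows shared. Hbb-bh1 and Hbb-y were identical at 451 of 602 aligned bases (74.9%) and shared 0 windows of this length.

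In the remainder, a level is a TMM-scaled CPM per kb of exon. It corrects for length but not for the reads left out of the near-identical adult pairs, so that levels of different genes are set side by side only as counted. The adult α genes supply the α chains of foetal liver haemoglobin. At S1 the level of Hba-a1 was 4016, 772, 1222 and 3908 in wild-type embryos 0, 1, 5 and 8, 485 and 677 in Het embryos 3 and 4, and 360 and 1230 in KO embryos 2 and 9. At S3 it was 61562, 69731, 69808 and 71880 in wild-type, 75999 and 69921 in Het, and 63009 and 57529 in KO, in the same order of embryos. Every S3 level lay above every S1 level, and at S1 the male wild-type embryos 0 and 8 stood above the other 6.

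Hba-a2, the second adult α gene, was again highest at S1 in wild-type embryos 0 and 8. Its level at S1 was 813, 145, 217 and 680 in wild-type, 82.0 and 96.1 in Het, and 54.1 and 165 in KO. Its level at S3 was 15941, 16948, 21682 and 23260 in wild-type, 23581 and 21221 in Het, and 14506 and 17864 in KO. Within each library the level of Hba-a2 was 0.134 to 0.202 of that of Hba-a1 at S1 and 0.230 to 0.324 at S3, and this ratio was higher at S3 in 8 of 8 embryos, within the limit that their shared reads set.

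The embryonic ζ gene Hba-x was the lowest of the 7 in every library. Its level at S1 was 5.02, 0.450, 0.286 and 13.1 in wild-type, 0.654 and 0.238 in Het, and 0.0508 and 5.21 in KO, where the lowest value rests on 2 counts. Its level at S3 was 125, 418, 175 and 191 in wild-type, 415 and 200.1 in Het, and 305 and 363 in KO. At S1 the values ran over a 257-fold range, with wild-type embryos 0 and 8 and KO embryo 9 high, and at S3 wild-type embryo 1 and Het embryo 3 were the highest.

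The adult β genes Hbb-bs and Hbb-bt, the β-s and β-t genes of the C57BL/6 haplotype, ran in parallel with Hba-a1. The level of Hbb-bs at S1 was 3075, 497, 821 and 2762 in wild-type, 271 and 368 in Het, and 175 and 740 in KO. At S3 it was 67924, 71185, 71317 and 80187 in wild-type, 80033 and 73176 in Het, and 61125 and 61390 in KO. Both KO levels of Hbb-bs at S3 were below all 4 wild-type levels, whereas at S1 KO embryo 9 lay among the wild-type embryos.

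The level of Hbb-bt at S1 was 1781, 243, 458 and 1447 in wild-type, 145 and 190 in Het, and 119 and 462 in KO. At S3 it was 40234, 43517, 47988 and 53316 in wild-type, 52717 and 49115 in Het, and 36758 and 40706 in KO. The groups overlapped at S3, where KO embryo 9 was above wild-type embryo 0. The ratio of Hbb-bt to Hbb-bs was 0.488 to 0.676 at S1 and 0.592 to 0.673 at S3, higher at S3 in 7 of 8 embryos (not KO embryo 2). Both Het levels at S1 were below all wild-type levels for Hbb-bt, as for the other 3 adult genes.

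Hbb-bh1, an embryonic β-like gene, had its KO levels at S3 apart from wild-type. Its level at S1 was 31.0, 6.12, 3.78 and 36.3 in wild-type, 2.90 and 3.92 in Het, and 2.45 and 6.09 in KO. Its level at S3 was 2278, 3014, 2260 and 3311 in wild-type, 2848 and 2403 in Het, and 884 and 1353 in KO. Both KO libraries at S3 were below all 6 others, whereas at S1 KO embryo 9 was between wild-type embryos 5 and 1.

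Hbb-y, the εy gene and the other embryonic β-like member, did not share that separation. Its level at S1 was 43.4, 1.59, 1.46 and 83.5 in wild-type, 3.39 and 1.28 in Het, and 0.752 and 32.3 in KO. Its level at S3 was 1060, 3384, 1275 and 1425 in wild-type, 2604 and 1139 in Het, and 2035 and 2220 in KO. At S3 both KO libraries lay between wild-type embryo 1, the highest, and the other 3 wild-type embryos.

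**Figure D1:**
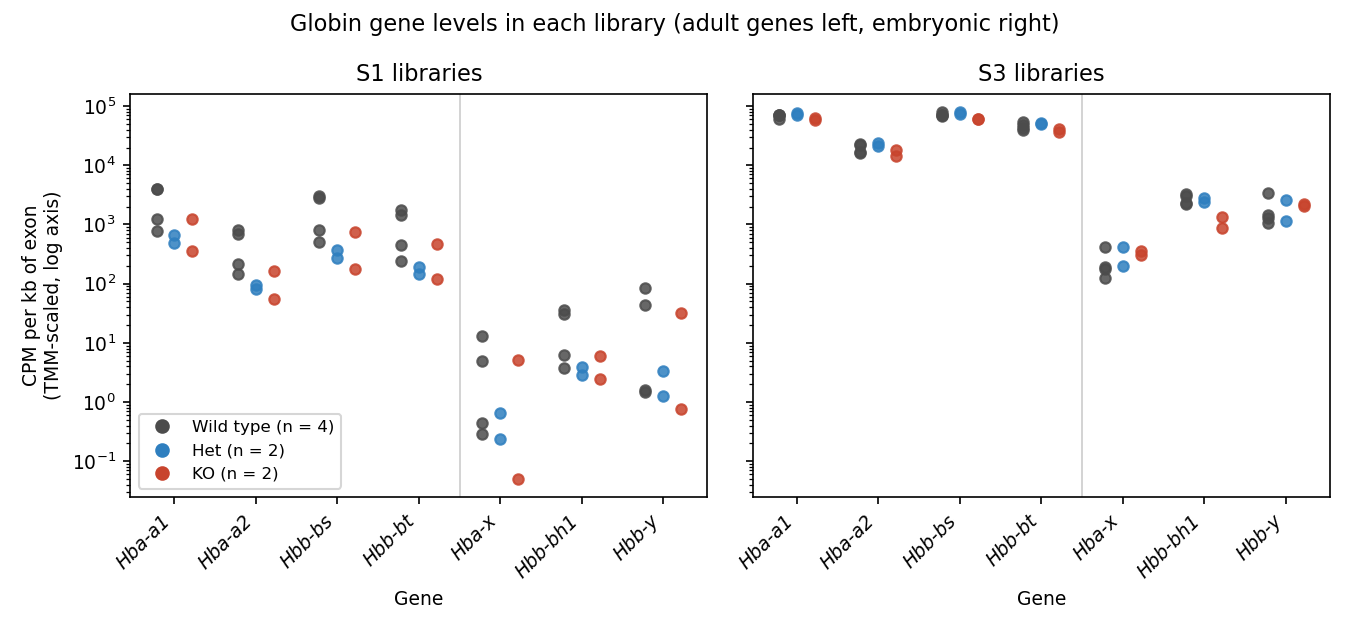
Level of each of the 7 globin genes (TMM-scaled CPM per kb of exon, log scale) in each S1 and S3 library, with 1 point for each embryo, coloured by genotype. Every S3 point lies above every S1 point of the same gene, and the S1 points spread over 11.2-fold to 257-fold ranges against 1.31-fold to 3.75-fold at S3.

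Ranked by the median level as counted over 8 libraries, the order at S3 was Hbb-bs (71251), Hba-a1 (69770), Hbb-bt (45752), Hba-a2 (19542), Hbb-bh1 (2341), Hbb-y (1730) and Hba-x (252). At S1 it was Hba-a1 (997), Hbb-bs (618), Hbb-bt (350), Hba-a2 (155), Hbb-bh1 (5.00), Hbb-y (2.49) and Hba-x (0.552). The order among the adult genes, and of adult against embryonic genes, rests on counts that lost unequal shares of reads, with 57.2% of windows shared for Hba-a1 and 28.6% for Hbb-bs. Most neighbours kept their order within each library, but Hba-a1 was above Hbb-bs in 8 of 8 libraries at S1 and in 1 of 8 at S3. Hbb-bh1 and Hbb-y did not differ beyond their spread, with Hbb-bh1 the higher in 4 of 8 libraries at S1 and 5 of 8 at S3. In both stages Hbb-bs was above Hbb-bt, Hbb-bt above Hba-a2, Hba-a2 above Hbb-bh1 and Hbb-y above Hba-x in 8 of 8 libraries.

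Wild-type embryos 0 and 8, the S1 libraries with the most globin, also stood apart in other markers. Their late erythroid sums (the 3 genes above) were 344 and 773 CPM, against 40.1 to 121 CPM in the other 6 S1 libraries. Their neutrophil sums (8 genes) were 183 and 119 CPM, against 1033 to 1521 CPM in the other 6. Their hepatoblast sums (9 genes) were 269 and 261 CPM, against at most 137 CPM in the other 6. The part of these cells in the globin levels was not tested, and in bulk RNA fewer cells of a type and less RNA per cell cannot be told apart.

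**Figure D2:**
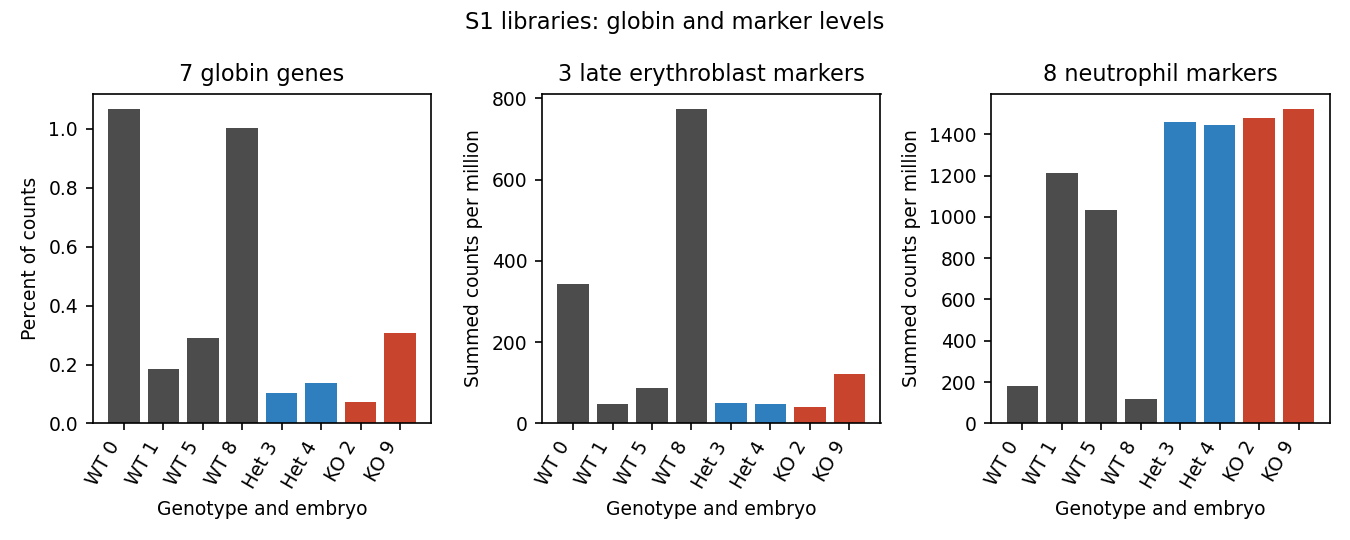
Bars for each S1 library, labelled by genotype and embryo, of the percent of counts in the 7 globin genes, the summed CPM of 3 late erythroblast markers and the summed CPM of 8 neutrophil markers. Wild-type embryos 0 and 8 have the highest globin percent, late erythroid sums of 344 and 773 CPM and neutrophil sums of 183 and 119 CPM.

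All 7 globin genes rose from S1 to S3 in each genotype, by edgeR's quasi-likelihood test on all 16 libraries with Benjamini-Hochberg adjustment and a threshold of 0.05. This was 7 of 7 in wild-type, against 32.2% of 13402 genes tested that were higher at S3, 7 of 7 in Het (28.9%) and 7 of 7 in KO (26.9%). Each of the 7 was higher at S3 in 8 of 8 embryos, with median S3 to S1 ratios of levels from 73.7 for Hba-a1 to 819 for Hbb-y. The neutrophil sum (8 genes) also separated the stages, at 119 to 1521 CPM at S1 and 1.11 to 13.7 CPM at S3. The hepatoblast, macrophage and megakaryocyte sums overlapped between stages. The part of such cells in the rise was not tested.

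The wild-type log2 fold changes of the adult genes were 4.78 for Hba-a1 (SE 0.53, edgeR adjusted p = 1.55e-06), 5.39 for Hba-a2 (SE 0.55), 5.34 for Hbb-bs (SE 0.59) and 5.56 for Hbb-bt (SE 0.61). Among the embryonic genes Hbb-bh1 had 7.14 (SE 0.69, edgeR adjusted p = 3.51e-07), Hbb-y 5.78 (SE 1.26, edgeR adjusted p = 8.66e-04) and Hba-x 5.59 (SE 1.09, edgeR adjusted p = 3.43e-04). In Het the log2 fold changes ran from 6.97 for Hba-a1 to 9.61 for Hbb-y, and in KO from 6.24 for Hba-a1 to 8.02 for Hbb-bh1. Without KO embryo 2, the log2 fold change of Hbb-y in KO was 6.10. Only 1 KO library was then left at each stage, so a call cannot be judged from that fit.

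As counted, the rise was not the same in extent for the α-like and β-like genes. Hba-a1 and Hba-a2 shared 57.2% and 73.2% of windows, against 28.6% and 31.9% for Hbb-bs and Hbb-bt. More α-like than β-like reads may thus be left out, so the ratio below is not the true balance of the RNAs. Whether the part left out changes with stage was not tested. The ratio of summed α-like to β-like levels was 0.981 to 1.39 at S1 and 0.690 to 0.772 at S3, lower at S3 in 8 of 8 embryos. On the log2 scale its mean was 0.26 ± 0.19 (SD, n = 8) at S1 and −0.47 ± 0.05 (SD, n = 8) at S3, a difference of −0.72 (two-sided exact sign-flip permutation test over 8 embryos, p = 0.00781, the smallest it can give, and 0.0312 after Benjamini-Hochberg adjustment over 12 tests of such within-library measures). The 7 genes made up 0.395% ± 0.403 of all counts at S1 and 11.1% ± 0.637 at S3 (SD, n = 8), higher in 8 of 8 embryos (same exact test, p = 0.00781, adjusted 0.0312).

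**Figure D3:**
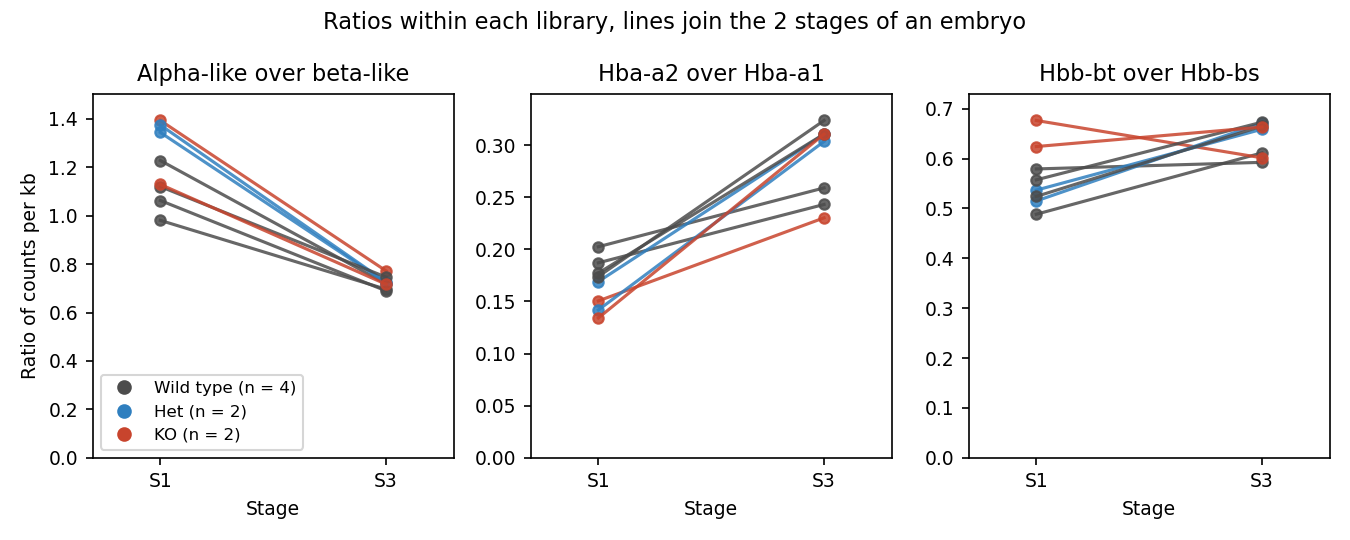
Ratios of levels per kb within each library (α-like over β-like, Hba-a2 over Hba-a1, Hbb-bt over Hbb-bs) at S1 and S3, with a line joining the 2 stages of each embryo, coloured by genotype. The α-like to β-like ratio goes down in 8 of 8 embryos, to 0.690 to 0.772, while Hba-a2 over Hba-a1 goes up in 8 of 8 and Hbb-bt over Hbb-bs in 7 of 8.

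As counted, the embryonic genes took a larger share of β-like globin at S3 than at S1. Hbb-bs and Hbb-bt lost reads from the 28.6% and 31.9% of windows they share, whereas Hbb-bh1 and Hbb-y shared 0 windows. The percents as counted are therefore likely above the true shares. Hbb-bh1 and Hbb-y together made up 1.54% ± 0.930 of summed β-like levels at S1 and 3.45% ± 0.833 at S3 (SD, n = 8), higher in 8 of 8 embryos (two-sided exact sign-flip permutation test, p = 0.00781, adjusted 0.0312). Hbb-bh1 alone took a higher percent at S3 in 8 of 8 embryos. Hbb-y alone did so in 6 of 8, and was lower at S3 in wild-type embryo 8, at 1.03% against 1.93%, and in KO embryo 9, at 2.10% against 2.60%.

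Hba-x made up 0.123% ± 0.134 of summed α-like levels at S1 and 0.317% ± 0.137 at S3 (SD, n = 8). The share was higher at S3 in 7 of 8 embryos, the exception being wild-type embryo 8, at 0.201% against 0.284%. The exact permutation test gave p = 0.0234, and 0.0703 after adjustment over the 12 tests, so this difference did not pass the threshold. The Hba-x share as counted is likely too high as well, because Hba-a1 and Hba-a2 shared 57.2% and 73.2% of windows.

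**Figure D4:**
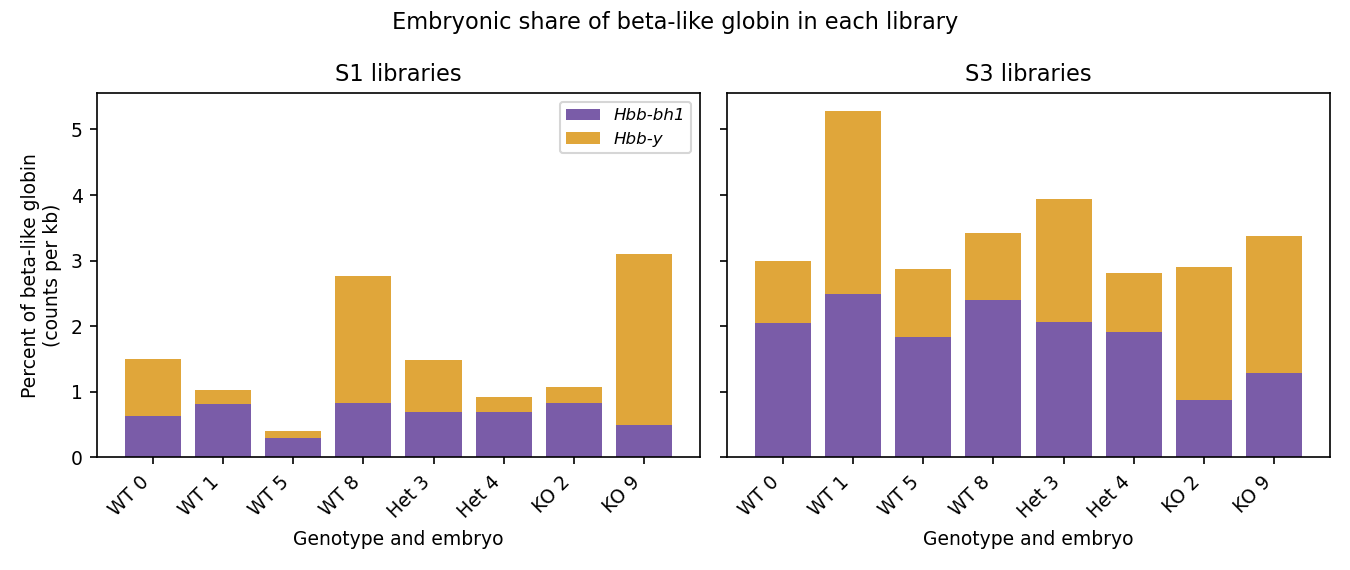
Stacked bars of the percent of summed β-like level per kb that Hbb-bh1 (purple) and Hbb-y (yellow) make up in each S1 and S3 library, labelled by genotype and embryo. The stack is higher at S3 in 8 of 8 embryos, and at S3 the Hbb-bh1 part is 0.877 and 1.28 in KO against 1.84 to 2.49 in wild-type.

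KO and wild-type were compared to see whether loss of Nprl3, whose gene holds most of the α-globin enhancers, went with a change in globin RNA at either stage. At S3, 0 of 7 globin genes were called by edgeR, against 0.559% of 11804 genes tested, with 1 of 7 at an unadjusted p under 0.05, where 1006 of all genes were, and 1 of 7 called by DESeq2. That gene was Hbb-bh1, with a log2 fold change of −1.27 (SE 0.24, 95% interval −1.82 to −0.72) and an edgeR adjusted p of 0.0748. It was called in 4 of 15 alternative fits, over which its adjusted p ran from 5.55e-06 to 0.689 and its log2 fold change was below 0 in 15 of 15. With sex as a covariate the edgeR adjusted p of Hbb-bh1 was 0.00326, where 2.22% of genes tested were called lower in KO. The other 3 calls came from DESeq2 without sex (background 0.974%), DESeq2 with sex (3.58%) and edgeR without the filter on low counts (0.586%).

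The other embryonic genes were not lower in KO at S3. Hbb-y had a log2 fold change of 0.26 (SE 0.42, 95% interval −0.69 to 1.22, edgeR adjusted p = 0.945) and Hba-x of 0.56 (SE 0.41, edgeR adjusted p = 0.824). The adult genes had log2 fold changes of −0.17 for Hba-a1, −0.26 for Hba-a2, −0.23 for Hbb-bs and −0.24 for Hbb-bt (SE 0.16 to 0.20), and the 95% interval for Hba-a1 ran from −0.53 to 0.20. Hbb-bs and Hbb-bh1 were lower in both KO libraries than in all wild-type libraries, 2 of 7 members against 8.92% of genes tested. Hba-a1, Hbb-bs and Hbb-bh1 were below every wild-type library of the same sex in both sexes, 3 of 7 against 19.7%.

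**Figure D5:**
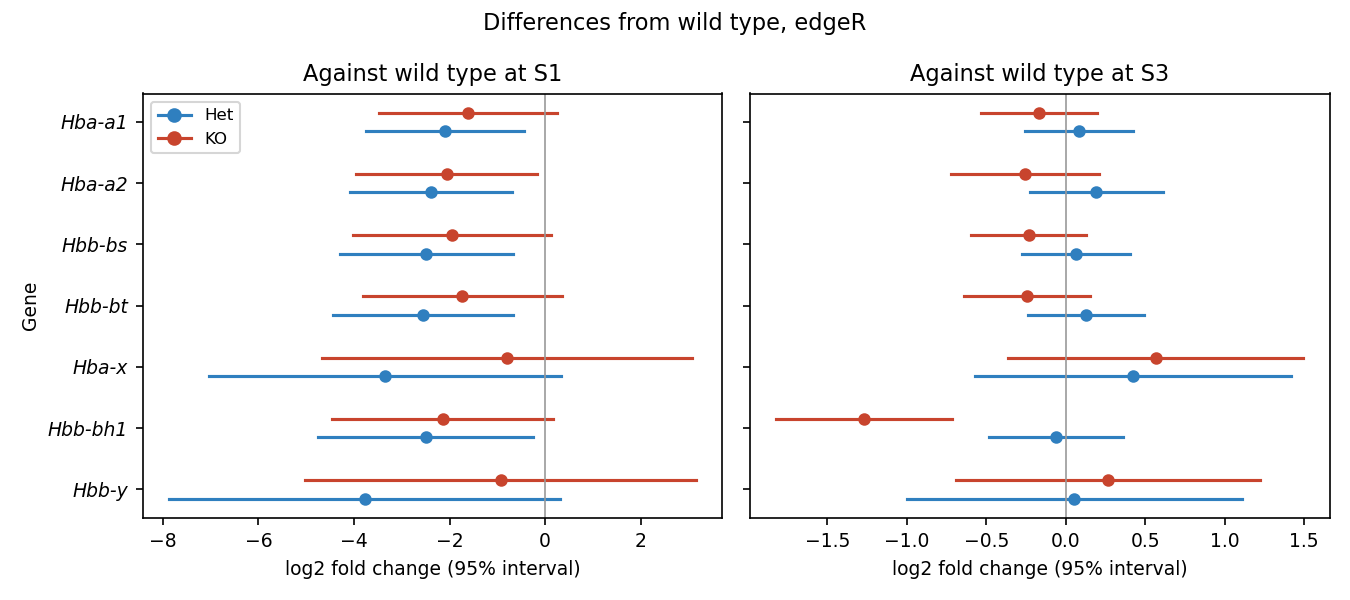
Log2 fold change of each globin gene with its 95% interval in KO against wild-type and Het against wild-type, at S1 and S3 (edgeR). At S3 the interval of Hbb-bh1 in KO, −1.82 to −0.72, lies below 0 although its adjusted p is 0.0748, and the S1 axis spans a wider range than the S3 axis.

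Within libraries, the balance between the embryonic β-like genes at S3 lay with Hbb-y in KO. Hbb-y made up 69.7% and 62.1% of the embryonic β-like level in KO embryos 2 and 9, against 31.8%, 52.9%, 36.1% and 30.1% in wild-type embryos 0, 1, 5 and 8 and 47.8% and 32.2% in Het. The ratio of Hbb-y to Hbb-bh1 was 2.30 and 1.64 in KO and 0.430 to 1.12 in wild-type, so the groups did not overlap. At S1 the percent ran from 20.7 to 84.1 over all 8 embryos, with no such separation. This ratio was picked after its values were seen, so no test is given.

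As a percent of all β-like globin at S3, Hbb-bh1 was 0.877 and 1.28 in KO against 1.84 to 2.49 in wild-type, and Hbb-y was 2.02 and 2.10 in KO against 0.951, 2.79, 1.04 and 1.03 in wild-type. Their sum was 3.14% ± 0.344 in KO (SD, n = 2) and 3.65% ± 1.12 in wild-type (SD, n = 4), a difference of −0.506 points within the spread between embryos (two-sided exact permutation test, p = 0.667, adjusted 0.727). The smallest p that 2 against 4 libraries can give is 0.0667. The Hba-x share of α-like globin was 0.436% ± 0.0621 in KO and 0.258% ± 0.149 in wild-type (n = 2 and 4, exact permutation p = 0.4). The log2 ratio of α-like to β-like globin was −0.43 ± 0.08 and −0.49 ± 0.05 (n = 2 and 4, exact permutation p = 0.267), and the difference ran from 0.0089 to 0.116 when 1 embryo was left out.

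The 7 genes together took 10.3% ± 0.378 of counts in KO at S3 and 11.2% ± 0.415 in wild-type (SD, n = 2 and 4, exact permutation p = 0.0667, the smallest possible, adjusted 0.16). Marker sums of other cells were not tested between genotypes at S3, and their ranges overlapped. The hepatoblast sum (9 genes) was 66.6 to 197 CPM in KO and 153 to 725 CPM in wild-type, and the macrophage sum (10 genes) was 14.1 to 29.6 CPM in KO and 28.5 to 65.4 CPM in wild-type. The late erythroid sum was 14913 to 18248 CPM in KO and 15097 to 26872 CPM in wild-type. Their part in the globin differences was not tested.

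At S1 the spread between embryos was wide beside the KO difference. By edgeR 0 of 7 globin genes were called, against 0.00712% of 14039 genes tested, with 1 of 7 at an unadjusted p under 0.05 (Hba-a2), where 355 of all genes were, and 0 called by DESeq2. The log2 fold changes were −1.62 for Hba-a1 (SE 0.80), −2.06 for Hba-a2 (SE 0.82), −1.94 for Hbb-bs (SE 0.89), −1.74 for Hbb-bt (SE 0.90), −2.15 for Hbb-bh1 (SE 0.99), −0.93 for Hbb-y (SE 1.76) and −0.79 for Hba-x (SE 1.67). KO and wild-type overlapped for 7 of 7, where 3.34% of genes tested were lower in both KO libraries than in all wild-type. The neutrophil sum was 1480 and 1521 CPM in KO and 119 to 1214 CPM in wild-type at S1, without overlap, and its part in the globin difference was not tested.

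Compared within sex, both KO libraries at S1 were below the wild-type libraries of their own sex for 6 of 7 genes, the exception being Hba-x, against 8.53% of genes tested. With sex in the model edgeR called 2 of 7 lower (Hba-a2, adjusted p = 0.0274, and Hbb-bs, adjusted p = 0.0289), against 0.0214% of genes. DESeq2 with sex called 5 of 7 lower, against 0.37%. Without wild-type embryos 0 and 8, which are both of the male wild-type embryos, the KO log2 fold changes were −0.33 for Hba-a1, −0.72 for Hba-a2, −0.53 for Hbb-bs, −0.27 for Hbb-bt and −0.22 for Hbb-bh1, all nearer to 0 than the values above, and 2.83 for Hba-x and 3.44 for Hbb-y, opposite in sign, and edgeR called 0 of 7.

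Het fold changes at S1 were negative for 7 of 7 genes, but 0 of 7 were called by edgeR, where 0 of 13818 genes were called (0%). At an unadjusted p under 0.05 there were 5 of 7, against 589 of the 13818 genes, and DESeq2 called 3 of 7, against 0.217% of genes called lower. The log2 fold changes were −2.10 for Hba-a1 (SE 0.71), −2.39 for Hba-a2, −2.49 for Hbb-bs, −2.56 for Hbb-bt and −2.50 for Hbb-bh1, with −3.35 for Hba-x and −3.78 for Hbb-y, and the edgeR adjusted p was 0.905 for each. The 4 adult genes were lower in both Het than in all wild-type libraries, 4 of 7 against 9.05% of genes tested. Marker sums of other cells at S1 also separated Het from wild-type, lower in Het for hepatoblasts (at most 36.7 against 45.6 to 269 CPM), macrophages (10.4 and 14.7 against 15.8 to 31.8 CPM) and megakaryocytes (6 genes, 16.9 and 18.1 against 28.2 to 56.9 CPM) and higher for neutrophils (1443 and 1458 against 119 to 1214 CPM). Their part in the globin difference was not tested.

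Both Het embryos are male, as are the wild-type embryos with the most globin at S1. Against the 2 male wild-type embryos alone, 7 of 7 genes were lower in both Het, where 27% of genes tested were. With sex in the model edgeR called 7 of 7 lower in Het, with log2 fold changes from −4.73 for Hbb-y to −2.77 for Hba-a1 and adjusted p from 0.00218 to 0.0064, against 1.55% of genes tested. DESeq2 with sex also called 7 of 7 lower, against 3.5%. In that model the Het estimate rests on wild-type embryos 0 and 8, the only other males. Without both of them a fit of Het and wild-type alone cannot take sex, because Het are all male and the remaining wild-type all female. The fit without sex called 0 of 7 with or without these embryos. Without them its log2 fold changes were −0.81 for Hba-a1, −1.05 for Hba-a2, −1.08 for Hbb-bs and −1.10 for Hbb-bt. They were −0.58 for Hbb-bh1, 0.27 for Hba-x and 0.59 for Hbb-y.

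At S3 the Het and wild-type levels of the globin genes overlapped, although Het embryo 3 was above every wild-type embryo for Hba-a1 and Hba-a2. By edgeR 0 of 7 were called, where 0% of 11746 genes were. At an unadjusted p under 0.05 there were 0 of 7, against 373 of the 11746 genes. DESeq2 called 0 of 7 and 1 of the 11746 genes. The log2 fold changes ran from −0.06 for Hbb-bh1 (95% interval −0.48 to 0.36) to 0.42 for Hba-x (95% interval −0.57 to 1.42), and 7 of 7 genes overlapped with wild-type, where 6.69% of genes tested were lower in both Het. The 95% interval for Hba-a1 was −0.25 to 0.42.

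Whether the genotype effect changed with stage was tested as an interaction over all 16 libraries. For KO, edgeR called 0 of 7 globin genes, against 0.0149% of 13402 genes, with 1 of 7 at an unadjusted p under 0.05 (Hba-a2), where 504 of all genes were, and 0 by DESeq2. For Het it called 0 of 7, where 0% of genes were called, with 5 of 7 at an unadjusted p under 0.05, where 370 of 13402 genes were, and 0 by DESeq2. Without the filter on low counts edgeR called 4 of 7 for KO (background 0.209%) and 7 of 7 for Het (0.198%). The difference between stages in the KO effect on Hbb-bh1 was 0.89 on the log2 scale (SE 0.94, 95% interval −1.13 to 2.90), so its lower level in KO was not shown to belong to S3.

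The other globin-cluster genes that were tested also rose between stages. Of 5 such genes 4 were tested, and 4 of 4 rose in wild-type. The edgeR log2 fold changes were 7.09 for Hbq1a and 6.72 for Hbq1b, the θ genes of the α cluster. That of Hbb-bh2, a gene of the β cluster, was 4.78. In wild-type at S1, raw counts were 4 to 5 for Hbq1a, 1 to 7 for Hbb-bh2 and 0 to 3 for Hbb-bh0. These genes passed the filter on low counts only through S3, so their rise was largely fixed in advance. Hbq1b had 37 to 355 counts there. Of 7 genes of haemoglobin assembly and upkeep 7 rose, among them Bpgm (5.69), which makes the 2,3-bisphosphoglycerate that lowers oxygen affinity, Prdx2 (3.69), a peroxiredoxin, and Blvrb (3.26), a biliverdin reductase. In all, 32.2% of genes tested rose and 37.5% fell in wild-type. The median log2 fold changes were 5.97 for the cluster genes, within the limit of low S1 counts, and 3.65 for the upkeep genes. For all genes tested it was −0.11. The lists here and below were chosen with earlier results of these data known, so their counts and medians are descriptions, not independent support.

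Of 12 activators of globin transcription, 9 rose and 1 fell from S1 to S3 in wild-type. Nfe2 (log2 fold change 4.14), Klf1 (2.23) and Lmo2 (1.93), a factor that binds the enhancers, the CACCC-binding activator of the adult β gene and a bridge in the GATA1 complex, were among those that rose. Of 27 repressors of embryonic globin genes, 9 rose and 12 fell, shares near those of all genes tested (32.2% and 37.5%), with a median of −0.40. Myb (−5.61), which holds progenitors in cycle, and the histone methyltransferase gene Ehmt2 (−3.36) fell, whereas Sox6 (4.08), a partner of BCL11A at the embryonic β-like genes, rose.

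Of 7 tested genes of the embryonic and foetal programme, 6 fell in wild-type and 0 rose. The RNA-binding protein genes Igf2bp1 and Igf2bp3 had edgeR log2 fold changes of −2.91 and −2.46, and Arid3a, a DNA-binding factor, of −2.80. In Het 30 and in KO 27 of the 57 list genes tested rose, and 17 and 18 fell, against 29 and 19 in wild-type. Over all genes tested, 28.9% rose in Het, 26.9% in KO and 32.2% in wild-type, and 32.4%, 30% and 37.5% fell.

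Between genotypes, edgeR without sex called 0 of these genes. In KO at S3, 54 were tested, with 4 at an unadjusted p under 0.05, where 1006 of 11804 genes tested were, and 1 called by DESeq2, by edgeR with sex and by DESeq2 with sex. These fits called 259, 547 and 730 of the 11804 genes, so that a single call among 54 was no larger a share than over all genes. The 4 at an unadjusted p under 0.05, a share near that of all genes, were Hbq1a, with a log2 fold change of −0.89 (SE 0.22, edgeR adjusted p = 0.172), Hbb-bh2 (−1.10, SE 0.40, edgeR adjusted p = 0.421), Mta2 of the NuRD repressor complex (0.28, SE 0.11) and Lin28b, which blocks let-7 maturation (−0.38, SE 0.16). Hbq1a was called in 4 of 15 alternatives. The median log2 fold changes of the lists in KO at S3 were −0.57 for the cluster genes, −0.09 for activators, −0.01 for repressors, −0.18 for the foetal programme and −0.13 for upkeep, against 0.01 for all genes.

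In KO at S1, 0 of 54 were called by edgeR with or without sex, with 0 at an unadjusted p under 0.05, 0 by DESeq2 and 1 by DESeq2 with sex. Over all 14039 genes, 355 were at an unadjusted p under 0.05 by edgeR, and DESeq2 called 45 without and 171 with sex. In Het at S1, 0 of 54 were called by edgeR and 0 by DESeq2, and with sex in the model 2 and 4, where 397 and 815 of 13818 genes were called, with 4 at an unadjusted p under 0.05, where 589 of 13818 genes tested were. These were Hbq1b (log2 fold change −2.39), Ep300 (−0.98), which encodes a histone acetyltransferase, Bach1 (−0.87), a haem-sensing repressor, and Sox6 (−1.24). In Het at S3, 0 of 54 were called by edgeR and 0 by DESeq2, with 0 at an unadjusted p under 0.05, where 373 of 11746 genes were, and with sex in the model edgeR called 10 and DESeq2 14, where they called 2124 and 2148 of all genes.

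Once the mean of each genotype and stage group was taken off, the members varied together across the 16 libraries, with Pearson correlations of log2 CPM between pairs of 0.851 to 0.997. Among 13401 genes, those closest to Hbb-bs were Hba-a1 (0.997), Hbb-bt (0.995), Hbq1b (0.985), Ackr1 (0.981) and Hba-a2 (0.981). Those closest to Hbb-y were Hba-x (0.990), Gm38619 (0.956), F930017D23Rik (0.926), Paqr6 (0.923) and Fn3k (0.922). The libraries share the spread of the S1 embryos described above, which these values carry.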

How the data were processed

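Per the labels and the methods, RNA was SMARTer-amplified and sequenced as paired 150-base reads. The authors mapped reads to mm39 with STAR 2.7.9 and deposited raw counts per gene made with featureCounts 1.6.4 on the Ensembl annotation. Per the file headers, read pairs were counted without strand, and reads mapping to several places or genes were left out. Of 55416 genes, 54749 matched a GENCODE symbol. A further 4 library columns had no matching sample and were left aside.

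edgeR 4.0.16 in R 4.3.3 gave TMM factors and the quasi-likelihood tests (glmQLFit, glmQLFTest), with Benjamini-Hochberg adjustment over all genes tested and a threshold of 0.05. Genes with a mean normalized count of 10 or less were left out. Genotypes were compared within a stage, without covariates. Stages and interactions were fitted on all 16 libraries in 6 groups. The study's methods name DESeq2 without a design formula. The same embryo number marks the same foetal liver at both stages, and over 13402 genes the deviations of such pairs from their group means correlated at 0.0692 to 0.334 in wild-type, 0.414 in KO and 0.0454 in Het. Embryos are separate animals. Within-library measures were tested with two-sided exact permutation tests over libraries or embryos.

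Alternatives were DESeq2 1.42.0, sex as a covariate, other filters and scalings, all 16 libraries in 1 fit, the replicate block, and each embryo left out. The fit without wild-type embryos 0 and 8 was chosen after seeing the data. The members and the lists (60 genes, 59 with a symbol in the table) were chosen with earlier results of these data known. The text names all 7 members, up to 3 genes of each list with the smallest p in a comparison with further genes called between stages given as counts, and the 5 genes most like Hbb-y and Hbb-bs. The scripts were tested on simulated data. Promoters are from a set based on RefSeq start sites, in which 6 of the 7 members had an entry. The list of late erythroid markers held 1 further gene that is not reported here.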

Additional observations from a re-analysis of the deposited data

Results flagged for a closer look

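In 3 of 40 groups of 4 wild-type libraries tested, 1 sample stood far from the others by Dixon's ratio (its gap to the nearest sample over the range of the group). Chance gives this in about 1 in 20 groups. All 3 concern wild-type embryo 1 at S3, and they share the same embryonic genes. The level of Hbb-y was 3384 there, against 1060, 1275 and 1425 (ratio 0.843). Hbb-y made up 2.79% of β-like globin, against 0.951%, 1.03% and 1.04% (ratio 0.953). Hba-x made up 0.480% of α-like globin, against 0.161%, 0.191% and 0.201% (ratio 0.876). The other embryonic gene, Hbb-bh1, did not stand apart in this embryo.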

How the results depend on the processing

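The 9 counts of members called and the 12 within-library measures were set against alternatives. Of the values, 221 stayed the same, 11 had more members called and 3 had a turned direction. The same means direction and call for a measure, and an equal or close number of members called for a count. For KO against wild-type at S3, 1 of 7 was called by DESeq2 alone, edgeR with sex, DESeq2 with sex, and edgeR without the filter. At S1, KO had 2 called by edgeR with sex and 5 by DESeq2 with sex, and Het had 3 by DESeq2 alone and 7 by either tool with sex. Without the filter the interaction called 4 members for KO and 7 for Het. The cause was not tested.

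With the embryo as a replicate block, edgeR called 7 members between stages in each of the 3 genotypes and 0 in either interaction, so the block changed no call of a member. Leaving out a wild-type embryo gave 0 members called in each genotype comparison and interaction, and 7 between stages in wild-type. Leaving out a Het or KO embryo leaves 1 library of that group at a stage, with the spread taken from other groups. Counts from such fits say little about stability and are not given. The mean KO difference in the embryonic share of β-like globin ran from −0.352 (without KO embryo 9) to 1.67 points at S1 and from −0.762 to 0.0395 (without wild-type embryo 1) at S3. That of α-like globin ran from −0.102 (without KO embryo 9) to 0.258 at S1. These turned against main differences of 0.657, −0.506 and 0.0779.

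For single genes, the KO log2 fold change at S1 without wild-type embryos 8 and 0 was 2.83 for Hba-x and 3.44 for Hbb-y. Leaving out 1 embryo gave −6.44 to 0.49 for Hba-x and −5.41 to 0.11 for Hbb-y, both lowest without KO embryo 9 and highest without wild-type embryo 8. Over all alternatives the other 5 members kept their sign but moved too, for KO at S1 with −2.79 to −0.33 for Hba-a1, −3.10 to −0.72 for Hba-a2, −3.36 to −0.53 for Hbb-bs, −3.06 to −0.27 for Hbb-bt and −2.98 to −0.22 for Hbb-bh1, and for Het at S1 with −2.78 to −0.81 for Hba-a1 and −3.32 to −0.58 for Hbb-bh1. Het at S1 without wild-type embryos 8 and 0 gave 0.27 for Hba-x and 0.59 for Hbb-y. In Het at S3, leaving out 1 embryo gave −0.65 to 0.57 for Hbb-y, −0.19 to 0.90 for Hba-x and −0.18 to 0.057 for Hbb-bh1. The KO effect at S3 minus S1 ran from −0.065 to 6.78 for Hba-x and from −2.90 to 4.33 for Nfia.

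Over all genes, edgeR called 66 for KO at S3, against 43 with upper-quartile scaling, 104 with all 16 libraries, 259 with DESeq2, 356 without the filter, 547 and 730 with sex in edgeR and DESeq2, and 11 to 42 without an embryo. Het at S3 had 0 called, against 2124 and 2148 with sex and 57 without the filter. At S1, KO had 1 called against 45 with DESeq2, 21 and 171 with sex and 7 without the filter, and Het 0 against 30 with DESeq2 and 397 and 815 with sex. Upper-quartile scaling moved the median change between stages from −0.11 to −0.28 in wild-type, from −0.05 to −0.19 in Het and from −0.07 to −0.29 in KO. Groups of 2 embryos, the wide S1 spread and Het embryos of 1 sex limit these comparisons, and Hba-x at S1 rests on as few as 2 counts.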
